A study of Arabidopsis thaliana with 6 samples.

Results

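The pericentromeric binding regions of EBS that recurred in every replicate are the subject of this section. EBS, short for EARLY BOLTING IN SHORT DAYS, reads histone marks in Arabidopsis and holds back flowering. Merging the nuclear peaks of the 3 deposited lists wherever they shared at least 1 bp gave 7956 regions, of which 1780 (22.4%) recurred in every list. The regions were chosen by peak presence and position: 873 of the 1780 (49.0%) had their midpoint in the pericentromeric intervals, which run from 11.5 to 17.7 Mb on chromosome 1, 1.1 to 7.2 Mb on chromosome 2, 10.3 to 17.3 Mb on chromosome 3, 1.5 to 6.3 Mb on chromosome 4 and 9.0 to 16.0 Mb on chromosome 5 (TAIR10). The other 907 lay in the chromosome arms.

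The series held 3 ChIP-seq samples and 3 input DNA samples, all from Col-0 whole seedlings about 10 days old, grown on plates with 16 h light and 8 h dark. All carried a FLAG-tagged EBS under its native promoter in plants mutant for both EBS and its close relative SHL, and an antibody against FLAG (Sigma F7425) pulled down the tagged protein in the ChIP samples. The labels do not say whether the replicates came from separate plantings or how many transgenic lines were used, and there is no ChIP of untagged plants to compare with, so EBS and recurring background cannot be told apart at a peak. A whole seedling mixes cell types, and the number of cells with EBS at a site and the amount per cell cannot be told apart. The lists of replicates 1, 2 and 3 held 5237, 4216 and 3661 nuclear peaks. They give no read counts, so the depth is unknown. Input values were not analysed here.

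EBS has a PHD domain and a BAH domain, reader modules that bind methylated tails of histone H3, one of them a mark of active genes and the other a mark of Polycomb repression. Pericentromeres flank the centromeres. In Arabidopsis they are rich in transposons and poor in genes, and their DNA and histones carry the methylation marks of heterochromatin. Many loci that gene annotations call pseudogenes are remnants of transposon reading frames. The gene table used here does not name their superfamilies.

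The intervals fitted their label in gene content. They covered 31.1 Mb, 26.1% of the measured nuclear length. Pseudogenes took 27.4% of their sequence against 2.06% in the arms, and protein-coding genes took 21.8% against 65.5%.

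Merged regions as such were about as dense in the pericentromere as in the arms, with 64.4 and 67.6 per Mb. They recurred more often: 873 of 2003 merged pericentromeric regions (43.6%) and 907 of 5953 arm regions (15.2%) held a peak of all 3 lists. That gave 28.1 recurring regions per Mb in the pericentromere and 10.3 in the arms, a ratio of 2.72. Recurrence chose the regions, so these figures describe them and were not tested. The ratio was 2.02 without replicate 3 and 3.06 when peaks needed a score of at least 100. The contrast in recurrence was far smaller among strong peaks: of pericentromeric peaks that scored 100 or more, 95.6%, 98.0% and 86.6% in replicates 1, 2 and 3 lay in a recurring region, against 94.2%, 91.7% and 78.8% of such arm peaks.

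The 3 lists contributed differently. Pericentromeric peaks made up 27.1%, 30.1% and 41.6% of the lists of replicates 1, 2 and 3, or 1420, 1269 and 1523 peaks. Their density of 45.7, 40.8 and 49.0 peaks per Mb varied less than that of arm peaks, at 43.4, 33.5 and 24.3 per Mb. The list of replicate 3, the shortest of the lists, thus held the most pericentromeric peaks and the fewest arm peaks. Of the pericentromeric peaks, 66.2%, 72.5% and 62.8% lay in the 873 regions (67.2% ± 4.9, SD, n = 3), whereas 27.6%, 32.6% and 47.6% of the arm peaks lay in recurring arm regions (35.95% ± 10.4). The pericentromeric share was the higher one in each list, by 38.6, 39.9 and 15.2 percentage points. When peaks with a score under 100 were left out, the mean difference of 31.2 points became 6.92. The contrast depended on what lay at the peak midpoint. On pseudogenes 75.4%, 80.4% and 65.3% of pericentromeric peaks lay in recurring regions, against 61.1%, 69.0% and 69.2% in the arms. The arms were thus higher there in replicate 3. On protein-coding genes the shares were 41.4%, 45.0% and 58.9% against 26.2%, 29.9% and 50.9%. Outside loci they were 71.3%, 80.5% and 60.8% against 29.3%, 41.3% and 32.9%.

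Each chromosome contributed members. Chromosome 5 held 212, chromosome 3 held 198, chromosome 2 held 174, chromosome 4 held 159 and chromosome 1 held 130. Chromosome 4 had the densest interval, with 33.1 regions per Mb, and chromosome 1 the sparsest, with 21.0. On chromosomes 2, 3, 4 and 5 between 50.6% and 54.1% of the recurring regions were pericentromeric, and on chromosome 1 the share was 35.8%. In the arms of the 5 chromosomes the density lay between 9.62 and 11.2 per Mb, below the pericentromeric density of the same chromosome in each case.

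Within the intervals, the regions became denser toward the middle. Each interval was split by distance from its middle into an inner, an intermediate and an outer zone of the same total length, 10.4 Mb each. The inner zone held 378 regions (36.5 per Mb), the intermediate zone 292 (28.2 per Mb) and the outer zone 203 (19.6 per Mb). Pseudogenes covered 39.3%, 29.1% and 13.9% of these zones, and protein-coding genes 6.85%, 20.2% and 38.3%. Over 61 complete bins of 500 kb, which held 3 to 31 regions with a median of 13, the count of regions followed the pseudogene cover of the bin (Spearman's rho 0.84, Pearson's r 0.81) and ran against its protein-coding cover (rho -0.71, r -0.70). These are descriptions across neighbouring stretches of the same chromosomes, whose lists and annotation they share. The lowest count, 3, occurred in 2 bins of chromosome 1, one toward the outer end of its interval and one just past the middle. On that chromosome the bins nearest the middle held 17, 9, 3 and 7 regions and those next outward 14, 13, 18 and 12. The rise toward the middle thus did not hold there. Neighbouring regions were a median of 16.9 kb apart. Of 868 gaps, 111 were under 1 kb and 249 (28.7%) under 5 kb, whereas 10 exceeded 200 kb and the widest was 475 kb.

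**Figure D1:**
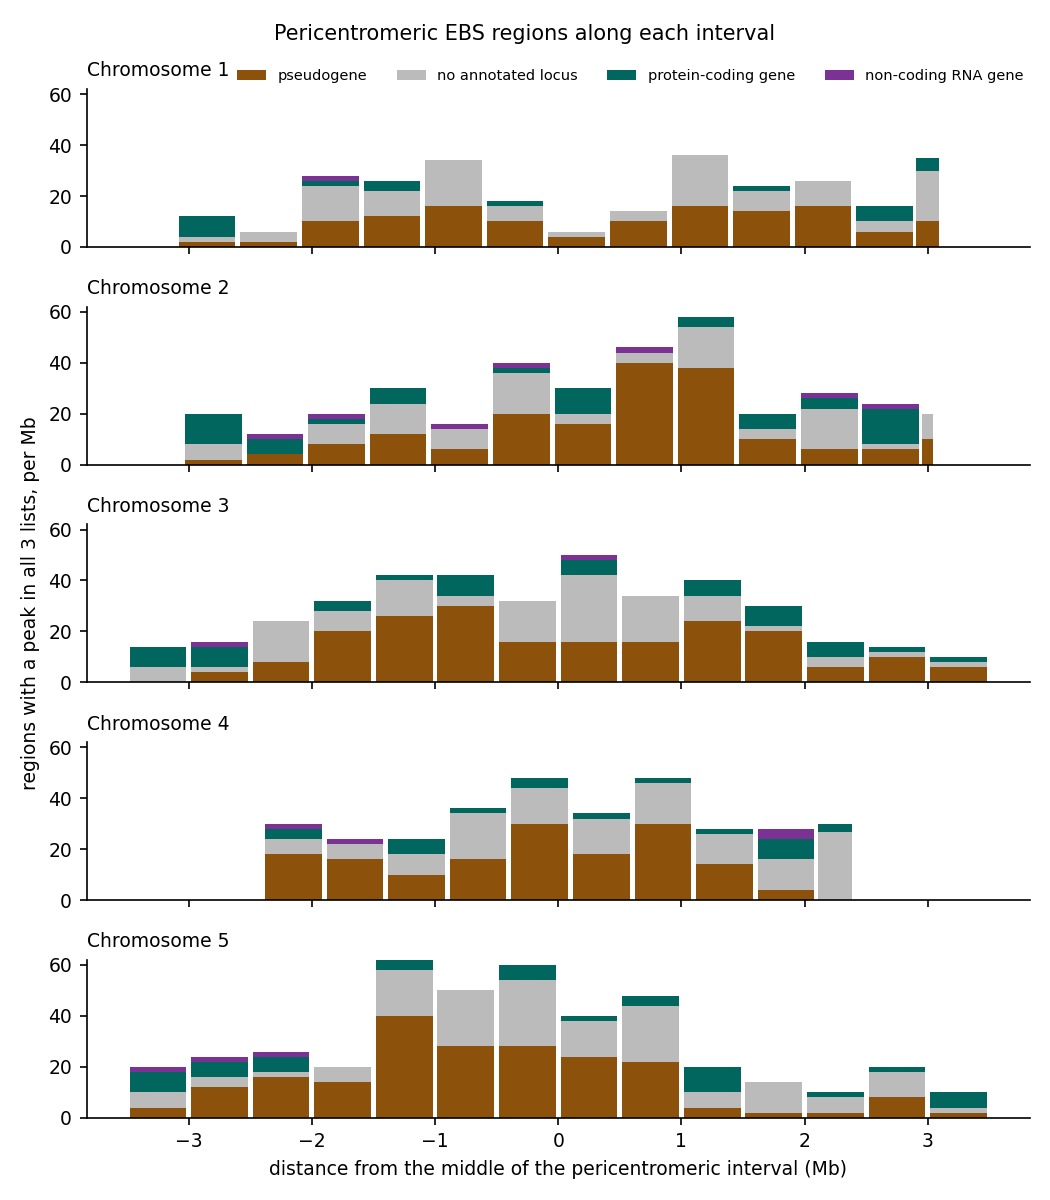
Recurring EBS regions per Mb (y axis) in bins of 500 kb, or shorter at one end of 3 intervals, by distance from the middle of each pericentromeric interval in Mb (x axis), coloured by what lies at the region's midpoint. Bars rise from the outer ends toward the middle on chromosomes 3 and 5, where the densest bin of all, on chromosome 5, holds 31 regions, 20 of them on pseudogenes. Chromosome 1 has a low bin of 3 regions just past its middle.

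The limits themselves did not mark the densest stretch. The 500 kb strips just inside the 10 limits held 95 recurring regions (19 per Mb) and the strips just outside held 51 (10.2 per Mb). Pseudogenes were at 27.4% and 15.7% of their midpoints and protein-coding genes at 36.8% and 51.0%. The nearest region inside each limit lay 4.95 to 236 kb from it, had a median length of 1575 bp and a median mean percentile of 77.6. The nearest outside lay 12.8 to 276 kb away, with a median length of 1021 bp and a median mean percentile of 80.4. The percentile of a peak is its rank among the nuclear peaks of its own list, where the top is near 100, and the mean is over the 3 lists.

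What the regions lie on was not part of the rule. Of the 873 midpoints, 428 were on a pseudogene (49.0%), 308 on no annotated locus (35.3%), 120 on a protein-coding gene (13.7%) and 17 on a non-coding RNA gene (1.95%). In the arms the order was different: 75.6% of the midpoints were on protein-coding genes, 17.1% on no locus and 6.06% on pseudogenes. The lists showed the same picture singly. From each list's own peak midpoints, pseudogenes held 49.3%, 49.1% and 49.8% of the peaks in the pericentromeric regions and 6.54%, 6.24% and 7.07% of those in the arm regions, a difference of 42.8 ± 0.088 percentage points (SD, n = 3). The exact two-sided sign-flip permutation test over the 3 lists gave p = 0.25, the smallest value that 3 lists allow, so no difference in locus class could pass 0.05. The lists describe the same sites and are not independent samples of loci. The pericentromere also holds more pseudogene sequence, so these shares do not compare like with like.

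Set against the amount of each kind of sequence, the regions were densest on pseudogenes. Pericentromeric pseudogenes carried 50.2 midpoints per Mb of their own sequence, non-coding RNA genes 44.3, sequence outside loci 19.98 and protein-coding genes 17.7. In the arms the same kinds of sequence carried 30.3, 9.37, 5.67 and 11.9 per Mb, so the pericentromeric density was 1.66-fold higher on pseudogenes, 4.73-fold on non-coding RNA genes (with 17 regions), 3.53-fold outside loci and 1.49-fold on protein-coding genes. Recurrence enters these densities.

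When all peaks of a list were counted, recurring or not, the contrast was smaller. Pericentromeric pseudogenes had 72.0, 65.9 and 85.6 peaks per Mb in replicates 1, 2 and 3, against 62.2, 47.9 and 57.3 for arm pseudogenes, ratios of 1.16, 1.37 and 1.49. Outside loci the ratios were 1.402, 1.76 and 1.98, and on non-coding RNA genes 1.56, 1.78 and 2.64. For these 3 kinds the pericentromere was higher in 3 of 3 lists, with an exact sign-flip permutation p of 0.25 each, again the smallest possible. Protein-coding genes gave ratios of 0.89, 1.00 and 1.29, with values on both sides of 1 (exact permutation p = 1). Replicate 3 had the highest ratio in all 4 kinds of sequence.

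**Figure D2:**
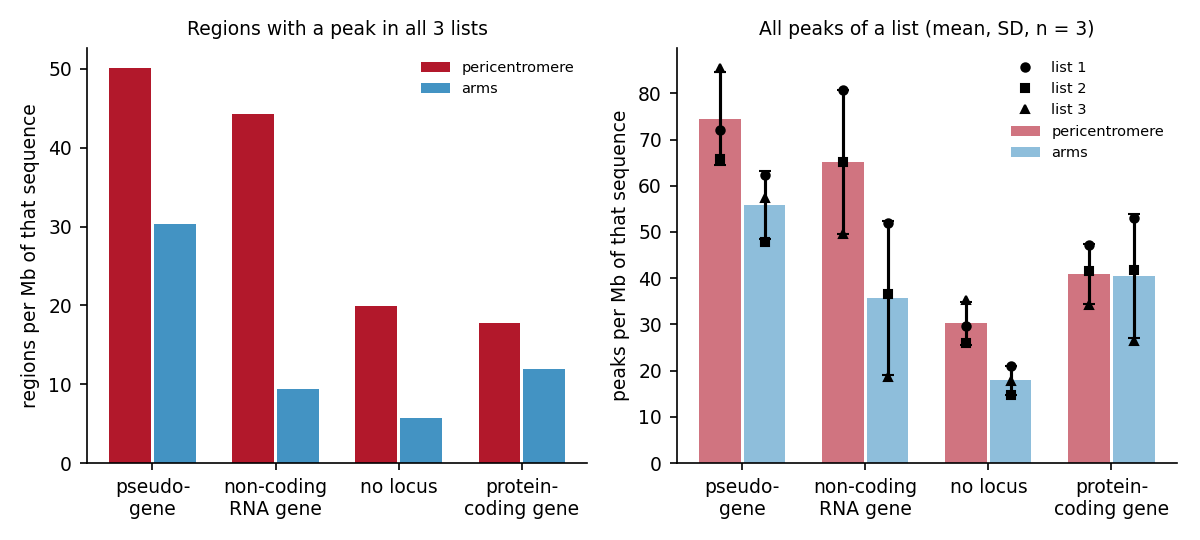
Left, recurring regions per Mb of each kind of sequence (y axis) in the pericentromere and the arms. Right, all nuclear peaks of a list per Mb of the same sequence, with bars for the mean, whiskers for the SD (n = 3) and symbols for each list. Pseudogenes are highest in the left panel at 50.2 per Mb. In the right panel the list values of pericentromere and arms overlap for protein-coding genes and for non-coding RNA genes.

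Counted by locus, 486 of 3777 pericentromeric pseudogenes (12.9%) shared at least 1 bp with a member or, at the limits, another recurring region. The share was 7.32% for 1066 arm pseudogenes and 11.6% for all nuclear ones. It was 5.56% for 3383 pericentromeric protein-coding genes, 4.58% for 24061 in the arms and 4.7% in the nuclear genome. Non-coding RNA genes gave 4.9%, 2.42% and 2.85% in the same order. Over loci of every kind it was 8.87% of 8140 in the pericentromere, 4.34% in the arms and 5.31% in the nuclear genome. Pericentromeric pseudogenes thus lay above the background of their own domain and protein-coding genes below it. Most members touched pseudogenes alone (516), 165 touched a protein-coding gene, and 168 (19.2%) touched no annotated locus.

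Long pseudogenes were touched more often than short ones. Among pericentromeric pseudogenes the share was 4.94% below 1000 bp, 10.9% from 1000 to below 2000 bp, 14.9% from there to below 4000 bp and 24.8% from there to below 8000 bp. Of 24 longer ones, 10 were touched. Arm pseudogenes of the same length classes gave 3.48%, 8.33%, 6.70% and 18.5%, lower in each of the 4. Protein-coding genes of the pericentromere showed no such order below 8000 bp, with 5.91%, 6.18%, 4.49% and 5.16%. A longer locus offers more sequence to a peak, and this was not adjusted for. Pseudogenes that the annotation lists as transcribed were touched less often than the others, 7.42% of 431 against 13.6% of 3346, but they were also shorter (median 808 against 2046 bp). From 2000 to below 4000 bp the transcribed ones were at 20.5% (9 of 44) and the others at 14.7%, so the order depended on length.

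Some pseudogenes held several regions: 80 held at least 2 members and 8 held at least 3. AT5G32690, annotated over 58519 bp, held 4. AT1G44510, a pseudogene of 4389 bp, held 3 separate members on chromosome 1, from 16853268 to 16854276, from 16854880 to 16855925 and from 16856501 to 16857643. The loci with several regions were singled out after their values were seen.

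Where on a pseudogene the regions lay followed a pattern. Of the 428 midpoints on pseudogenes, 161 (37.6%) were in the middle 50% of the locus's length, and 30.1% were in the outermost 10% at either end. On protein-coding genes of the pericentromere 58.3% of 120 midpoints were in the middle 50%. For recurring arm regions the middle shares were 30.9% of 55 midpoints on pseudogenes and 61.7% of 686 on protein-coding genes. The contrast was thus not particular to the pericentromere. From each list's own peaks in the 873 pericentromeric regions the middle share was 36.7%, 37.8% and 37.9% on pseudogenes and 56.1%, 52.8% and 53.7% on protein-coding genes. It was lower on pseudogenes in 3 of 3 lists, by 16.7 ± 2.4 percentage points (SD, n = 3, exact sign-flip permutation p = 0.25, the smallest possible). Every list had to hold an overlapping peak in these regions, so the lists could hardly differ and their agreement is no independent replication. For loci of at least 4000 bp the middle shares were 37.2% of 183 midpoints on pseudogenes and 36.4% of 11 on protein-coding genes. Among these long loci the shares were close, and in the arms they were 22.6% of 31 on pseudogenes and 33.3% of 69 on protein-coding genes. The loci under all midpoints had a median length of 1543 bp for genes and 3568 bp for pseudogenes, and the part of length in the contrast was not tested further.

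Density was also taken by distance from the ends, over loci of all lengths together. A locus below 1000 bp lies wholly within 500 bp of an end, so the steps farther in hold longer loci only. The first 500 bp inside a pseudogene end carried 64.5 midpoints per Mb (213 regions), against 41.5 at 500 to 1000 bp and 32.3 to 48.7 farther in. On the outer side, density was 33.96 per Mb within 500 bp of a pseudogene end and lay at 29.1, 27.0 and 13.8 in the next steps of 500 bp, with 11.7 beyond 2000 bp. In single lists, counting their peaks in these same regions, the first 500 bp inside carried 71.2, 69.6 and 75.4 peaks per Mb, above each other distance in the same list. Protein-coding genes had no such rise on their outer side. Density within 500 bp outside a gene was 11.9 per Mb and beyond 2000 bp it was 22.9. Inside genes it went from 26.4 in the first 500 bp to 2.93 beyond 2000 bp, the latter from 2 regions. The table used gives no strand, so the start and the end of a locus were not separated.

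**Figure D3:**
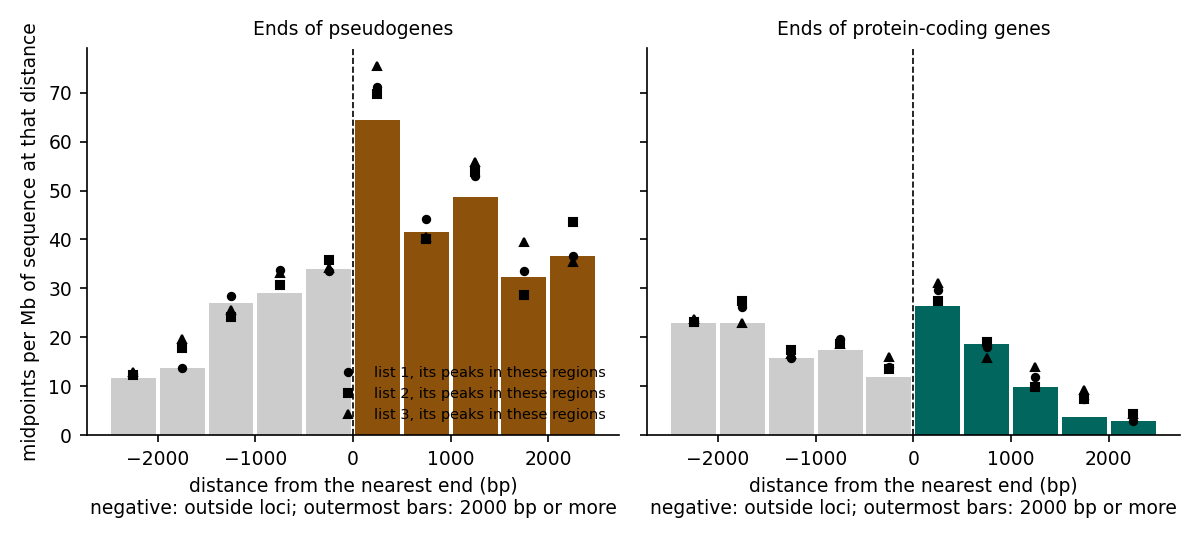
Midpoints of the 873 regions per Mb of pericentromeric sequence (bars, y axis) by distance in bp from the nearest pseudogene end (left) or protein-coding gene end (right), with negative distances outside all loci. Symbols give the midpoints of each list's own peaks in these regions. The highest bar, 64.5 per Mb, is the first 500 bp inside pseudogenes.

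The 308 regions whose midpoint lay on no locus were still close to one. Their median distance to the nearest locus was 547 bp, against 747 bp for pericentromeric sequence outside loci, and 70.5% lay within 1000 bp against 59.4% of that sequence. The nearest locus was a pseudogene for 68.5% of them and for 53.8% of the sequence. A protein-coding gene was nearest for 26.6% and 38.1%. Only 1 of the 308 was more than 5 kb from any locus, whereas 6.59% of the sequence was.

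Pericentromeric regions were shorter than those in the arms. They ranged from 307 to 5562 bp with a median of 1022 bp, against 1794 bp for arm regions, and covered 1.04 Mb in all. The difference in medians was -772 bp, and -381.5 bp without replicate 2. Of the 873, 96 (11.0%) were longer than 2000 bp, against 40.9% in the arms. The median width of the peaks themselves was 763, 829 and 700 bp in replicates 1, 2 and 3, against 1104, 1470 and 867 bp in arm regions, so the pericentromeric peaks were the narrower ones in 3 of 3 lists. By midpoint, regions on protein-coding genes had the longest median, 1426 bp, against 1123 bp on non-coding RNA genes, 994 bp on pseudogenes and 949 bp outside loci. In 769 regions (88.1%) each list had exactly 1 peak. All 873 had bases common to all 3 lists, with a median shared core of 565 bp, and in 599 (68.6%) the core filled at least 50% of the region.

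The regions spanned the full range of peak scores. The score is the authors' own value per peak. It serves here to describe and rank peaks within a list, and percentiles were taken with scores capped at 3100. Medians were 280, 228 and 328 in replicates 1, 2 and 3, with minima of 20.4, 20.1 and 21.6. As percentiles the medians were 82.9, 77.5 and 71.2, against 81.3, 79.1 and 76.8 for arm regions, so the pericentromeric median was higher in replicate 1 and lower in the other two. The mean difference was -1.83 points, from 1.64, -1.60 and -5.54 in replicates 1, 2 and 3. Merging without replicate 3 gave 9.32. That setting also changed the regions compared, since those of replicates 1 and 2 alone then counted (478 in the arms, 101 in the pericentromere). It therefore does not isolate the scores of replicate 3. The extremes were thinner in the pericentromere at both ends. A score of 3100 or more was reached by 27, 23 and 10 members against 59, 73 and 35 arm regions. Scores under 50 were held by 8.25%, 11.3% and 6.64% of members against 16.1%, 15.8% and 14.8% of arm regions. Scores of at least 100 in all 3 lists were found for 564 members (64.6%) and 57.6% of arm regions. Near the threshold of the lists, 22 members had a lowest score under 25.

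The lists ranked the regions alike. Spearman's rho of the percentiles over the 873 regions was 0.93 between replicates 1 and 2, 0.81 between 1 and 3 and 0.81 between 2 and 3, as a description over sites that every list had to call. The percentiles of replicates 1 and 2 differed by at most 10 points in 661 regions (75.7%), those of 1 and 3 in 424. Replicate 3 gave the lowest of the 3 percentiles in 585 regions. The range over the lists was above 50 points in 26.

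**Figure D4:**
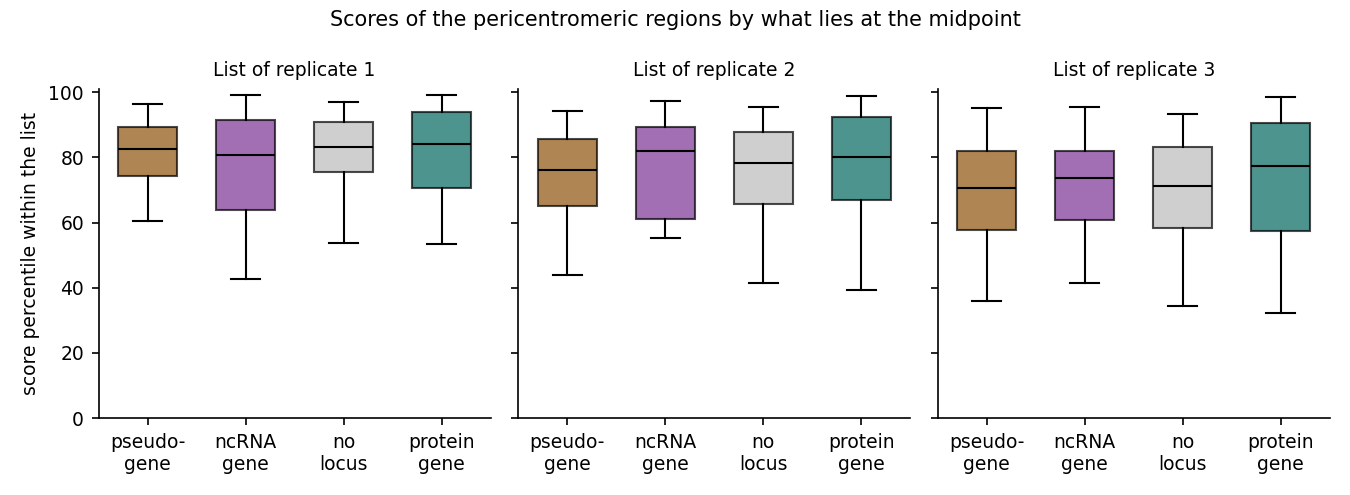
Percentile of each region's best peak score within its list (y axis, %), by the kind of locus at the midpoint, for the 3 lists. Boxes give quartiles and medians, and whiskers reach from the 5th to the 95th percentile of the regions. The medians of the 4 kinds lie between 70.6 and 84.1 and the boxes overlap in each list.

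Scores differed little by locus class. Median percentiles on pseudogenes were 82.5, 76.1 and 70.6 in replicates 1, 2 and 3, outside loci 83.3, 78.4 and 71.3, and on protein-coding genes 84.1, 80.1 and 77.3. Among these 3 kinds protein-coding genes had the highest median and the widest quartile range in each list. The 17 regions on non-coding RNA genes had 80.9, 82.0 and 73.7. The inner, intermediate and outer zones likewise had close medians, 82.4, 82.9 and 83.6 in replicate 1, 75.6, 78.5 and 80.0 in replicate 2 and 72.0, 70.4 and 70.8 in replicate 3.

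The 6 regions with a score of at least 3100 in all 3 lists lay mostly on protein-coding genes, whereas those genes held 13.7% of all members. AT5G39770 carried the longest region of the pericentromere, 5562 bp on chromosome 5 from 15922191 to 15927752, with scores of 3100 in each list. It covered 5359 bp of that gene. AT3G28780 (chromosome 3, 10805208 to 10807958) had 3100 in each list, and AT2G05580 (chromosome 2, 2055332 to 2057327) had 3100, 3100 and 3203. The fourth gene was GATL10, described below. The pseudogene AT2G06180 (chromosome 2, 2418905 to 2422878) had 3100 in each list, with 3157 bp common to all of them. The remaining region, on chromosome 1 from 11649744 to 11651118, touched no annotated locus and had 3100, 3100 and 3189.

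Some strong regions followed each other in order, though not always closely. On chromosome 3, the next member after that of AT3G28780 was at AT3G28840, from 10838156 to 10840966, with scores of 3100, 3100 and 2818. The gap between them was wider than the median gap of 16.9 kb. On chromosome 2, a region on the pseudogene AT2G15410 (6716943 to 6721127) had 3130, 3100 and 2907. The next region ran from 6721273 to 6726144 and reached AT2G15410 and AT2G15420, with 2981, 3100 and 1704. Other strong pseudogene regions lay on AT5G35070 (chromosome 5, 13337354 to 13340088, with 3100, 3100 and 2753), which is listed as transcribed, and on AT5G38365 (15333545 to 15335263, with 3100, 3100 and 2495). At AT3G42057 (chromosome 3, 14245404 to 14247236, with 3100, 3100 and 2659) the midpoint lay off the pseudogene. At AT3G33118 (13890673 to 13894878) the scores were 3100, 2809 and 3137.

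Beside the region on chromosome 1 above, the strongest ones off all loci lay on chromosome 1 from 13777495 to 13780156 (2422, 3121 and 2556), on chromosome 3 from 13395460 to 13396828 (3100, 3012 and 2197) and on chromosome 5 from 12187164 to 12188649 (3145, 2583 and 2081). All 3 were between the percentiles 96.8 and 99.2 in each list.

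The members that touched protein-coding genes reached 188 genes, of which 33 have a symbol in the gene table. For 28 of the 33 a peak of every list reached the gene body itself. The regions at 19 had scores of at least 100 in all 3 lists. These include ATPC1, PYR6, CEF and APK, whose gene bodies were not reached in every list. Exons, introns and untranslated parts were not analysed here.

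Among genes of the cell wall and cell surface, GATL10 (AT3G28340), which encodes a galacturonosyltransferase-like protein, had a score of 3100 in each list on chromosome 3 from 10587985 to 10590827. EXPA24, an expansin gene of wall loosening, had 1219, 1277 and 1097 on chromosome 5 from 15738749 to 15741082. The merged regions covered both genes whole, but through replicate 2 alone. Peaks of replicates 1 and 3 covered 318 and 132 of the 1739 bp of GATL10, and 767 and 700 of the 1574 bp of EXPA24. GSL05, which encodes a callose synthase, had 495, 273 and 1004. The other wall and surface genes were weaker. GH9B14, a glycosyl hydrolase gene, had 136, 57.5 and 157, and AGP5, an arabinogalactan protein gene, had 62.2, 94.0 and 188. EXO, a gene of brassinosteroid-dependent growth, had 84.0, 103 and 157. LTPG2, which encodes an anchored lipid transfer protein, had 36.5, 26.4 and 151. By percentile, GATL10 and EXPA24 stood between 91.5 and 99.4 in each list and LTPG2 between 27.6 and 56.7.

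Among genes of primary metabolism, mean percentiles ran from 30.3 for AGT to 97.6 for ADT4. NIA2 (AT1G37130), which encodes the main nitrate reductase, had 1809, 2510 and 3100 on chromosome 1 from 14158114 to 14161112. ADT4 (AT3G44720), whose product makes phenylalanine from arogenate, had 2430, 3213 and 1845 on chromosome 3 from 16271315 to 16273491. Their percentiles were 96.2 to 99.4 for NIA2 and 96.4 to 98.8 for ADT4. APK, which encodes adenosine phosphosulfate kinase of sulfur assimilation, had 217, 179 and 165, with the gene body reached in replicate 2 alone. AGT, the gene of a photorespiratory aminotransferase, had 26.2, 27.0 and 35.1. PAP26, a purple acid phosphatase gene, had 100.3, 62.6 and 49.4 and was likewise reached in replicate 2 alone. PYR6, which encodes a kinase of pyrimidine nucleotides, was touched by 33 bp in replicate 1 alone, and its region, with 1539, 1679 and 950.1, lay mainly on the pseudogene AT5G26642.

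Genes of chromatin and transcription were HAF01, GATA12, RAP2.1, LSH1, HB23 and MIF2. The region at HAF01 (AT1G32750), a histone acetyltransferase gene of the TAF1 family, had 3169, 3100 and 2485 on chromosome 1 from 11843891 to 11846825. It reached 579 bp of that gene and lay mainly on its neighbour AT1G32740. MIF2, which encodes a mini zinc finger protein, had 521, 725 and 714. GATA12, a GATA factor gene, had 384, 169 and 708, and RAP2.1, an AP2-domain factor gene, had 279, 192 and 607. LSH1, named for light-dependent short hypocotyls, had 92.5, 223 and 627. HB23, a zinc finger homeodomain gene, had 364.8, 212 and 172. The merged regions at MIF2, GATA12, RAP2.1 and LSH1 covered the whole gene, with less cover in some single lists. That at HB23 covered 65.3% of the gene, mainly through replicate 1. Peaks of replicates 1, 2 and 3 covered 966, 186 and 51 of its 1511 bp.

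Genes of development and growth included SAP (STERILE APETALA), an F-box gene of flower and organ development, with 1535, 2497 and 1169 on chromosome 5 from 13939701 to 13941408. AIR3, an auxin-induced protease gene of root cultures, had 2537, 2203 and 1348 on chromosome 2 from 1402724 to 1405014. The AIR3 region lay inside its gene, over 34.9% of it, and the SAP region covered 24.4% of SAP and reached past it. MEE38, named for arrest of embryos, had 131, 288 and 562. MEE14, of the same naming, had 47.2, 287 and 152 in a region of 4221 bp that lay mainly on AT2G15880. The mean percentile of this region was 66.0, with 61.3 and 56.7 in replicates 1 and 3. When peaks were merged anew without replicate 2, a different region remained on MEE14, with a mean percentile of 14.6. GEK1, a gene of ethanol tolerance, had 1915, 1620 and 1442. UBQ10, a polyubiquitin gene, had 63.8, 51.6 and 61.5.

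Genes of the chloroplast were ATPC1, RPL12-C and LHCB2.1. The region at ATPC1, which encodes the gamma subunit of the chloroplast ATP synthase, had 1651, 2787 and 959.6, but reached the gene in replicate 1 alone, over 107 bp. RPL12-C, which encodes a plastid ribosomal protein, had 65.6, 62.0 and 93.9, with 959, 959 and 473 of its 959 bp covered in replicates 1, 2 and 3. LHCB2.1, a light-harvesting gene, had 97.2, 81.7 and 31.7. The region at ATPUP13, a purine permease gene, had 1597, 1738 and 968.7 and lay mainly on the pseudogene AT4G08710. CEF had 148, 244 and 191, with its body not reached in replicate 3.

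**Figure D5:**
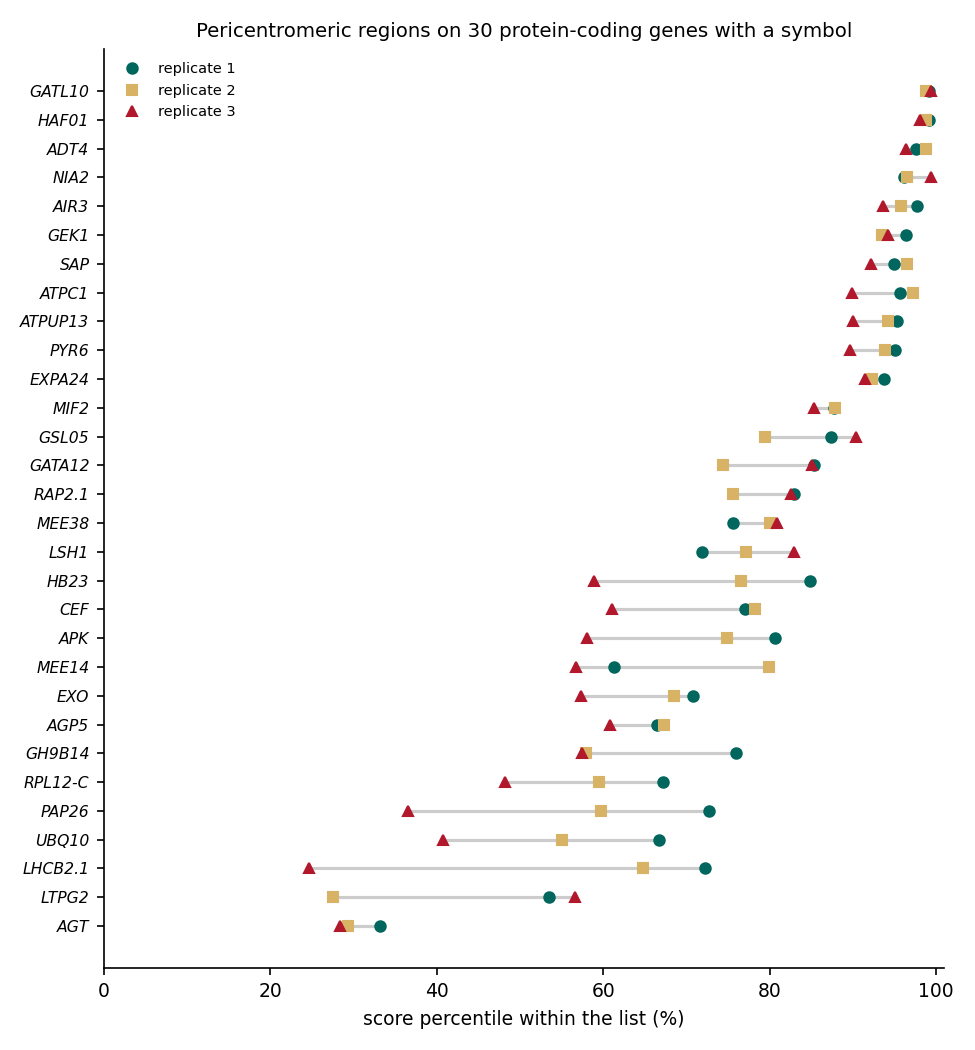
Percentile of the region's best score within each list (x axis, %) for the 30 highest-ranked protein-coding genes with a symbol that a pericentromeric region touches, one row per gene and one symbol per replicate. The regions at the upper genes, GATL10 to EXPA24, lie at 89.7 or higher in each list, and that at LHCB2.1 ranges from 24.7 to 72.3. Some of the upper regions, such as those at ATPC1 and PYR6, lie mainly on another locus.

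The weakest members by mean percentile lay mostly on protein-coding genes as well. GRP9 (AT2G05440), a glycine-rich protein gene, was the lowest of all 873, with 21.3, 20.2 and 48.2. AGP9, an arabinogalactan protein gene, had 26.5, 29.6 and 21.6, and CID11, named for a CTC-interacting domain, had 40.2, 22.9 and 22.1. The other 2 of the lowest 5 lay on no locus at the midpoint, on chromosome 1 from 17535958 to 17536474 (25.7, 23.0 and 36.9) and on chromosome 3 from 15267375 to 15268272 (21.4, 30.1 and 28.7). Protein-coding genes were thus at both ends of the ranking, which the wider quartiles of that kind also show.

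Both ribosomal RNA genes that the table places in the pericentromere were touched by a single region on chromosome 3, from 14198957 to 14200148. Recurring arm regions likewise touched 2 of 2 ribosomal RNA genes in the arms, so this was not particular to the pericentromere. The scores of the chromosome 3 region were 429, 184 and 1659. The region just before it, from 14195281 to 14197297, touched the gene AT3G41762 and the microRNA locus MIR5642a, with 885, 434 and 3100. Replicate 3 ranked both higher than the other lists did, at the percentiles 95.6 and 99.4. Ribosomal RNA genes exist in many near-identical copies, so their peak values are uncertain. Of the other non-coding kinds, 30 of 618 long non-coding RNA genes (4.85%), 2 of 62 transfer RNA genes (3.23%) and 2 of 65 microRNA genes (3.08%) were touched, close to the 4.9% of all pericentromeric non-coding RNA genes. Copies of transposons also share sequence, and the treatment of reads with several possible positions is not given in the sources. Its part in the regions on pseudogenes was not tested.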

How the data were processed

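The 3 ChIP samples have a deposited peak list each, made with Bowtie2 2.2.8, SAMtools 1.3 and MACS 1.4 on TAIR10, per the submitters' processing notes. No source used here states the threshold or how input entered. In each list the authors deposited start, end and score of a peak, called per sample. The score is 10 × −log10 of a p-value in this caller's output (20.0 to 3228 here), and is compared within a list only. Coordinates are printed counted from 1. Organelle peaks (3, 3 and 6) were left out. The alternatives left out weak peaks, changed the overlap, the number of lists, the limits and the rule of the locus class, or left out a replicate.

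Loci came from a RefSeq gene table of TAIR10.1, whose nuclear frame was taken as that of TAIR10 and none of whose coordinates is printed. Of the midpoints, 64.7% lay on a locus, against 50.5% to 56.5% with the regions moved by 5 to 50 kb. A midpoint went to a protein-coding gene first, then a pseudogene, then a non-coding RNA gene. The table has no strand, exons or transposon families, so planned counts by transposon superfamily and gene family and planned sequence features were not made. The members, lists and limits were chosen with earlier results of these data known. Named regions were the 12 highest and 5 lowest by mean percentile, the 5 longest, and the top 4 off all loci. Named genes were those with a symbol, up to 30 by percentile. Regions at the limits are given as ranges. Loci with several regions, ribosomal RNA genes and MIR5642a were named after their values were seen, and the comparisons of density per kind of sequence, place within a locus and distance to a locus were added then too. The test planned for recurrence is not printed because recurrence chose the regions. The remaining sign-flip tests have a smallest p of 0.25. Python 3.11.15, pandas 2.3.3 and NumPy 2.4.6 were used, and the merging was tested on simulated lists.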

Additional observations from a re-analysis of the deposited data

How the results depend on the processing

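The number of pericentromeric regions was 564 when peaks needed a score of at least 100 and lay between 778 and 1134 under the other alternatives, with 942 to 1006 when a replicate was left out. Their share of all recurring regions was 40.3% with at least 2 lists and 41.6% to 48.2% when a replicate was left out. The density ratio to the arms was 1.91 with at least 2 lists and 2.02 to 2.64 when a replicate was left out, lowest without replicate 3. Midpoints on pseudogenes made up 48.3% with at least 2 lists, 48.3% to 49.0% when a replicate was left out, 49.5% with lists of equal length, 51.7% and 47.2% with limits 500 kb inward and outward, 62.7% for any overlap and 44.6% of covered bases. The per-list pseudogene difference from the arms stayed between 40.7 and 50.03 percentage points. The excess of peaks that recurred over the arms, 31.2 points on average over the lists, was 6.92 with a score of at least 100. The length difference from the arms, -772 bp, was -602 to -381.5 bp when a replicate was left out, nearest to 0 without replicate 2. The percentile difference from the arms, -1.83 points, was -5.51 with a score of at least 100 and -0.505 to 9.32 when a replicate was left out, positive without replicate 3, and so has no settled sign. Leaving out a replicate also changed which regions were compared. The cause of these changes was not tested. Of the 30 named genes, 19 held a region with a score of at least 100, 28 without replicate 1 and 28 without replicate 2. Moving the limits inward left 17, since the other 13 lie in the outermost 500 kb. No paired analysis was possible because the 3 lists analysed here all belong to the ChIP group, so that no other group with values shares their replicate numbers. Read depth is unknown.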

Other observations

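The pericentromere also held merged regions without a peak of all 3 lists. Replicate 3 alone gave 406 of them, replicate 1 alone 269 and replicate 2 alone 194. Those of replicate 3 had 42.6% of midpoints on pseudogenes and 16.5% on protein-coding genes. Those of replicates 1 and 2 had 21.9% and 21.6% on pseudogenes and 48.0% and 52.1% on protein-coding genes. A score of at least 100 was reached by 54 of the regions of replicate 3 alone, against 2 and 0 for replicates 1 and 2.

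Among regions shared by 2 lists the pseudogene shares were closer together. Replicates 1 and 2 shared 101, of which 42.6% lay on pseudogenes and 42.6% on protein-coding genes, whereas replicates 1 and 3 shared 107, with 47.7% and 15.0%, and replicates 2 and 3 shared 53, with 49.1% and 22.6%. The difference between these groups of regions was not tested.

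Chromosome 2 carries a copy of mitochondrial DNA near its centromere. The window from 3.2 to 3.6 Mb that was set for it held 7 members of 14 merged regions, 17.5 per Mb, with median scores of 255, 134 and 247 in replicates 1, 2 and 3.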
